A study of Mus musculus with 31 samples.

Results

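Monosome RNA of wild-type mouse neocortex was compared between the day of birth (P0, 3 libraries) and embryonic day 13 (E13, 2 libraries), 5 of the 31 libraries of the series. Monosome RNA is here the poly(A) RNA of sucrose gradient fractions 4 to 7 of 14, the region of the 40S and 60S ribosomal subunits and the 80S single ribosome, named by the submitters as monosome. The members are all genes of the deposited table: 23258 gene names, of which 12123 passed a filter of a mean of at least 1 FPKM (fragments per kilobase of transcript scaled to the number of mapped fragments) over the wild-type libraries and were tested. The other wild-type libraries hold total lysate RNA and polysome RNA (fractions 9 to 12) at the same 2 ages. The remaining 16 are labelled HuR cKO, a conditional knockout of HuR (Elavl1), whose Cre driver the labels do not name. The labels give the wild-type animals no strain, sex or allele, and do not say whether a library is 1 animal, a pool or a litter.

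An mRNA enters a gradient fraction by the number of ribosomes on it. In the 40S to 80S region sit messages with a scanning subunit or a single ribosome, messages just starting or rarely initiated, short coding sequences that hold few ribosomes, and untranslated RNA bound in particles of that size. Between mid-neurogenesis and birth the neocortex turns from a tissue of dividing radial glia, the stem cells lining the ventricle, and newborn deep-layer neurons into one with layered neurons, growing axons, first synapses and the first astrocytes. In such bulk tissue, fewer cells of a type and less RNA per cell cannot be told apart.

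In all, 6807 of 12123 genes (56.1%) passed an adjusted p of 0.05 in limma, 2478 of them higher at P0 (20.4%) and 4329 lower (35.7%). The difference was at least 2-fold for 1586 of the higher and 2595 of the lower genes, and at least 8-fold for 128 and 139. These differences are on the scale log2(FPKM + 1), P0 minus E13, which understates changes of genes near 0, and the median over all genes was -0.27. Rescaling the libraries by their median ratios moved that median to -0.04 and the split to 3186 higher (26.3%) and 3269 lower (27.0%), in all 53.3%, so directions below are read against the median. Below, "rose by" or "fell by" a value gives a gene's difference on this log2 scale, and values in FPKM are levels in single libraries, E13 replicates 0 and 1 and P0 replicates 0, 1 and 2 in that order. FPKM summed to 859580 and 916801 in the E13 libraries and to 563032, 607717 and 608742 in the P0 libraries, and 15388 to 16585 genes were above 0. The E13 libraries stood farther apart from each other than the P0 libraries did, with a median absolute log2 difference of 0.447 against 0.177 to 0.218. Over all genes, 26.1% had every P0 library above both E13 libraries and 43.8% had every one below. Without E13 replicate 0, 5005 genes were called (2019 higher, 2986 lower). The labels give no sex, and genes of the sex chromosomes differed between the libraries: the Y-linked Eif2s3y was at 0 and 6.55 FPKM at E13 and 41.4, 41.8 and 23.1 FPKM at P0, and Xist, the RNA that silences an X chromosome, at 2.69 and 1.23 FPKM at E13 and 0.102, 0.132 and 0.217 FPKM at P0. E13 replicate 0 held the least of the first and the most of the second, and the part of sex in the results was not tested. The depth in fragments is unknown. The p-values measure only the spread between libraries of a group, pooled over the 15 wild-type libraries of all 3 kinds of RNA. The same test on the 5 monosome libraries alone called 6169 of 11993 genes (2291 higher, 3878 lower). Tbr1, of early cortical neurons, was at 12.2 and 17.9 FPKM at E13 and 14.3, 16.6 and 13.5 FPKM at P0, and did not pass the test in limma (adjusted p = 0.990).

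Elavl1 itself (chromosome 8, 4285382 to 4325413, minus strand, GRCm38) was at 42.4 and 13.5 FPKM at E13 and 10.3, 12.3 and 8.28 FPKM at P0 in these wild-type libraries. It fell by 1.16 ± 0.34 on the log2 scale (adjusted p = 0.00905). Both E13 libraries lay above the P0 libraries, E13 replicate 1 by little. Without E13 replicate 0 the difference was -0.37 (adjusted p = 0.286).

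The largest changes are given as the 15 called genes each way with a mean of at least 5 FPKM at either age, libraries of the ages that do not overlap, none of the 5 at 0, and no predicted or small RNA genes; embryonic globins, which reach 0 at P0 and changed more, are given with the red cell markers. The 3 largest increases were those of Gabra5, Mef2c and Ptgds. Gabra5, a GABA-A receptor subunit, stood at 0.843 and 1.45 FPKM at E13 and 63.6, 101 and 106 FPKM at P0, a difference of 5.39 ± 0.25 (adjusted p = 9.89e-10). Adap1, an ARF GTPase-activating protein abundant in neurons, stood at 2.09 and 2.98 FPKM at E13 and 89.9, 78.8 and 76.0 FPKM at P0. Adcy1, a calcium-stimulated adenylyl cyclase, stood at 1.57 and 2.18 FPKM at E13 and 77.6, 53.9 and 62.4 FPKM at P0. In each of these genes every P0 library lay far above both E13 libraries. Of the others, Gnal, the olfactory and striatal G protein alpha subunit, rose by 4.43, Rgs7, a regulator of G protein signalling, by 4.43, Kcnip2, a subunit of A-type potassium channels, by 4.39 and Syt16, a synaptotagmin-related protein, by 4.25. Mef2c, a transcription factor of cortical neurons, rose by 4.75 and Ablim3, an actin-binding LIM protein, by 4.12. Tcerg1l rose by 4.42, Bend6 by 4.29 and Fam163b by 4.14. Erc2, an active zone scaffold of the synapse, rose by 4.36. The neuropeptide precursor Nts rose by 4.61 and Ptgds, the prostaglandin D2 synthase of meninges and choroid plexus, by 4.69, from 16.1 and 2.16 FPKM to 250.4, 111 and 241 FPKM.

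The decreases included transcription factors of new neurons and genes of dividing cells. Nhlh1, a basic helix-loop-helix factor switched on briefly as neurons are born, stood at 57.7 and 66.8 FPKM at E13 and 0.0290, 0.440 and 1.17 FPKM at P0, a difference of -5.42 ± 0.42 (adjusted p = 1.13e-07). Cks2, a subunit of cyclin-dependent kinases, stood at 505 and 213 FPKM at E13 and 8.13, 9.39 and 10.6 FPKM at P0. Tead2, a TEAD transcription factor of neural progenitors, stood at 383 and 402 FPKM at E13 and 15, 20.1 and 23.6 FPKM at P0, and its E13 libraries differed by little beside their gap to P0. Hmga2, a chromatin protein of early neural stem cells, stood at 59.6 and 8.84 FPKM at E13 and 0.0838, 0.207 and 0.144 FPKM at P0. Its E13 libraries differed widely, and the lack of overlap with P0 was a condition of the choice. Gmnn, which restrains replication licensing, fell by 4.88, Birc5, of the chromosomal passenger complex, fell by 4.63, Cenpa, the centromeric histone, fell by 4.44 and Ccna2, cyclin A, fell by 4.48. Shisa2, which limits Wnt and FGF receptors, fell by 4.46, and the rhomboid-like Rhbdl3 fell by 4.49. Ube2c, Neurog2, Rspo1 and Mfng, given with their lists below, complete the 15. Adult alpha globin Hba-a1 fell by 4.64 ± 1.24, the widest error of the 30 genes. None of these 30 genes, chosen by that rule, lost its call when any 1 of the 5 libraries was left out.

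**Figure D1:**
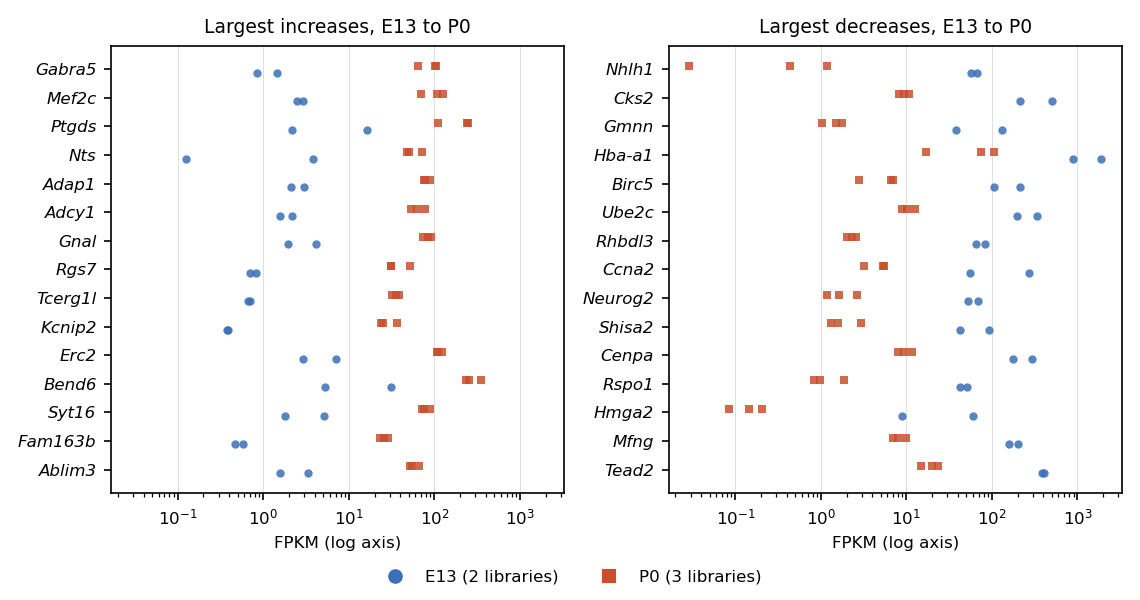
Monosome FPKM (log axis) of the 15 genes with the largest increase and the 15 with the largest decrease from E13 to P0 among those with no library at 0; circles are the 2 E13 libraries and squares the 3 P0 libraries. The libraries of the 2 ages lie apart in every gene drawn because genes with overlap were left out. The E13 pair is widest for Nts, Hmga2 and Ptgds.

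Gene lists put these changes in order. In each, the counts are read against the 20.4% higher and 35.7% lower over all genes and the median of -0.27, and the plot of list shares shows all 41. Replication and mitosis genes fell in all 40 of 40 tested, with a median of -2.66. Their summed level was 2142 and 1126 FPKM at E13 and 138, 159 and 173 FPKM at P0. Mcm2, of the replicative helicase, stood at 16.6 and 16 FPKM at E13 and 1.20, 1.09 and 1.26 FPKM at P0, a difference of -2.99 ± 0.18 (adjusted p = 1.40e-08). Ube2c, which feeds the anaphase-promoting complex, stood at 335 and 198 FPKM at E13 and 8.78, 10.3 and 12.5 FPKM at P0. Mcm3, the spindle factor Tpx2 and the mitotic kinase Plk1 changed by -2.81, -2.69 and -3.04. All 40 kept their call without any 1 library.

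**Figure D2:**
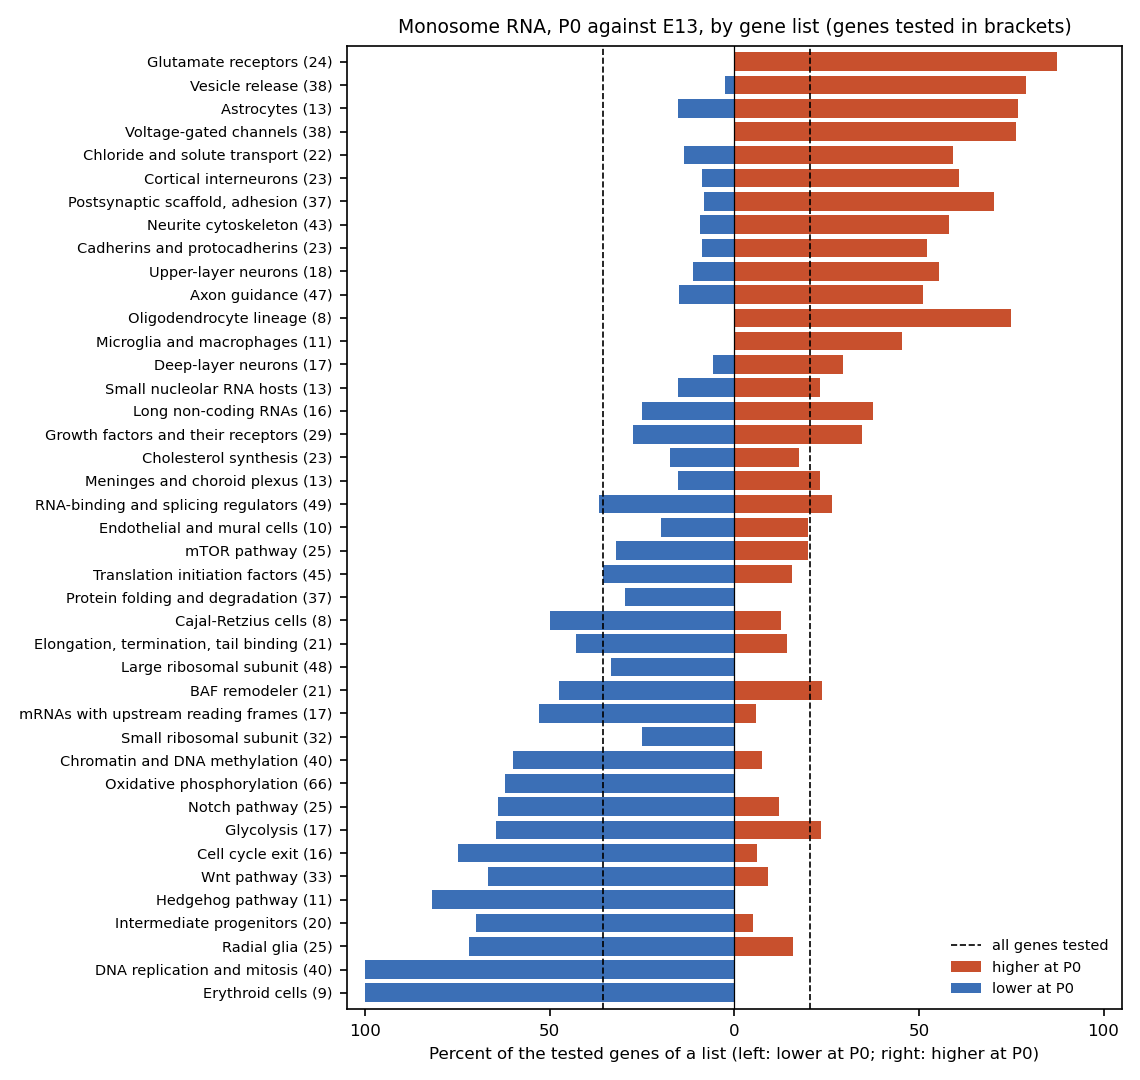
Percent of the tested genes of each of 41 lists that were called higher (right, red) or lower (left, blue) at P0 in monosome RNA; dashed lines mark the shares over all genes, 20.4% higher and 35.7% lower. Synaptic and channel lists lie at the top, and replication, erythroid and progenitor lists at the bottom.

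These genes move together, so their promoters are shown for a pair of letter patterns that cell cycle promoters are known for: the CCAAT box (CCAAT or, read on the other strand, ATTGG) and the cell cycle genes homology region (TTTGAA or TTCAAA). In the 250 bases before the RefSeq start (GRCm38.p6), a CCAAT box lay in 26 of the 33 replication and mitosis promoters in the table (78.8%), against 36.9% of the promoters of 8688 tested genes and 40.6% of 3191 promoters of all genes called lower. TTTGAA or its reverse complement lay in 9 of 33 (27.3%) against 9.53%, and both patterns in 9 of 33 (27.3%) against 3.80%. Of 28 promoters of vesicle release genes, which mostly rose, 8 (28.6%) held a CCAAT box, 5 (17.9%) TTTGAA or its reverse complement and 3 (10.7%) both. Of the 11 promoters available for the 15 largest decreases, 5 (45.5%), 1 (9.09%) and 1 (9.09%) did. The E2F pattern TTTGGCGC and the cyclic AMP response pattern TGACGTCA, also searched, each lay in 2 of 33 (6.06%), against 0.886% and 2.91%. Both strands were searched, and matches of the 2 patterns can share a single letter. Printed are the 120 bases before the start, on the gene's strand, of the 3 genes that hold both patterns there and whose GENCODE gene begins after them, with matches in capitals. They are Cdkn3, a cell cycle phosphatase (chr14:46760421-46760540, plus strand), Top2a, the topoisomerase that untangles replicated DNA (chr11:99024190-99024309, minus strand), and Kif11, the spindle-pole motor (chr19:37376262-37376381, plus strand).
Cdkn3: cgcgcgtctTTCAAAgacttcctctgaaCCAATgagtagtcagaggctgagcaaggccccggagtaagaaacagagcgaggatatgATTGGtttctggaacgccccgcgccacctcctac
Top2a: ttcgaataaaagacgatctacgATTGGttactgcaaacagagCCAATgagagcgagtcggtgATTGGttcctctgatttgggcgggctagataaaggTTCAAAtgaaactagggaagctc
Kif11: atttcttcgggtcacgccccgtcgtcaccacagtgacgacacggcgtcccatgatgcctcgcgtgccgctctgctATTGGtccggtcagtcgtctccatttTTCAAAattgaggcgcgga

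In monosome RNA Cdkn3, Top2a and Kif11 changed by -2.85, -2.46 and -2.05 on the log2 scale. A match of letters is a description and not a bound site.

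Genes of neural progenitors fell. Of 25 radial glia genes, 18 fell and 4 rose (median -2.38). Pax6, the factor that sets cortical radial glia identity, stood at 42.3 and 34.3 FPKM at E13 and 3.05, 3.60 and 3.85 FPKM at P0, and both E13 libraries lay far above every P0 library. Id4, an inhibitor of differentiation factors, stood at 148 and 100.0 FPKM at E13 and 4.42, 5.53 and 7.48 FPKM at P0. Nr2e1, which keeps neural stem cells dividing, fell by 4.09, the patterning factor Gli3 fell by 2.92, the homeobox factor Otx1 fell by 2.78 and Dach1 fell by 2.62. The radial glia genes that rose are also known from astrocytes or from adhesion: Tnc, a matrix protein, by 2.09, Slc1a3, a glutamate transporter, by 1.40, Ptn, a growth factor, by 1.07 and Cdh2, N-cadherin, by 0.94. The calls of Ptn and Cdh2 end without E13 replicate 0 (adjusted p = 0.151 and 0.333), that of Ptn also without P0 replicate 2, and that of Cdh2 without any of the P0 libraries.

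Intermediate progenitors are the transit-amplifying cells between radial glia and neurons. Of 20 of their genes, 14 fell and 1 rose (median -2.25). Neurog2, the proneural factor, stood at 52.4 and 68.9 FPKM at E13 and 1.18, 1.61 and 2.65 FPKM at P0, a difference of -4.47 ± 0.27 (adjusted p = 1.14e-08). Its relative Neurog1 was at 6.79 and 5.98 FPKM at E13 and is listed at 0 in all 3 P0 libraries. Btg2, an antiproliferative gene of neurogenic divisions, fell by 3.24. Unc5d, a netrin receptor, rose by 1.03, a call that ends without E13 replicate 0 (adjusted p = 0.285) or P0 replicate 2. Members that neurons go on using, Neurod1 (-1.37), Neurod2 (0.51), Neurod6 (0.72), Elavl4 (0.07) and Tbr1, did not pass the test.

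Most genes of the Notch, Wnt and Hedgehog pathways, known for keeping progenitors dividing, fell. In the Notch pathway 16 of 25 genes fell and 3 rose (median -1.02). The ligand Dll1 stood at 17.5 and 22.5 FPKM at E13 and 3.26, 3.27 and 3.10 FPKM at P0, a difference of -2.31. Of the Fringe glycosyltransferases that modify Notch, Mfng stood at 161 and 201 FPKM at E13 and 6.95, 8.04 and 9.85 FPKM at P0 and Lfng fell by 2.29, whereas Rfng rose from 39.4 and 59.4 FPKM to 106, 123 and 129 FPKM (adjusted p = 4.65e-04). The target genes Hes1, Hey1 and Nrarp changed by -2.75, -2.87 and -2.77. The other 2 that rose, the gamma-secretase subunit Psen2 (0.89) and the ligand Jag2 (0.79), lose their call without E13 replicate 0, and Jag2 also without P0 replicate 0.

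In the Wnt pathway 22 of 33 genes fell and 3 rose (median -1.30). Rspo1, a secreted enhancer of Wnt signals, stood at 50.8 and 42.0 FPKM at E13 and 0.970, 0.842 and 1.87 FPKM at P0. The receptor Fzd2 stood at 42.8 and 21.0 FPKM at E13 and 1.59, 1.36 and 1.72 FPKM at P0, and Fzd1 and Fzd8 changed by -2.53 and -2.12. The repressor Tcf7l1 fell by 3.50 and Axin2, a feedback target, fell by 1.66. Apc, the scaffold of the beta-catenin destruction complex that also binds microtubules, rose by 2.12, Dkk3 by 2.56 and Lgr4, an R-spondin receptor, by 0.85. In the Hedgehog pathway 9 of 11 fell and none rose (median -1.89). Smo, the signal transducer, stood at 154 and 109 FPKM at E13 and 12.6, 10.7 and 16.2 FPKM at P0. The coreceptors Cdon, Gas1 and Boc changed by -3.15, -3.88 and -2.79 and the suppressor Sufu fell by 1.65. Ptch1, receptor and target, was at 0.867 and 1.18 FPKM at E13 and 2.13, 1.49 and 1.94 FPKM at P0 (adjusted p = 0.0968, called higher only after rescaling).

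Growth factor genes split, 10 higher and 8 lower of 29 (median 0.16), with 5 lower without E13 replicate 0 and 5 without P0 replicate 1. FGF receptors fell, Fgfr3 from 37.2 and 40.4 FPKM to 3.15, 2.61 and 4.42 FPKM, Fgfr2 fell by 1.82 and Fgfr1 fell by 1.38. The intracellular FGF homologues that bind sodium channels rose, Fgf12 from 0.531 and 0.606 FPKM to 16.8, 15.4 and 15.9 FPKM and Fgf14 by 2.11. Of the list of cell cycle exit genes, which also holds cyclins, 12 of 16 fell and 1 rose, and 10 and 1 after rescaling. The median was -1.17, and -0.99 without E13 replicate 0. Rbl1, a pocket protein, fell by 1.92 and the kinase inhibitor Cdkn2c fell by 2.11. Ccnd2, cyclin D2, not an exit gene itself, fell by 2.73. Ccng1, cyclin G1, rose by 0.74, which ends without E13 replicate 0 (adjusted p = 0.0673).

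Among neuron classes, 10 of 18 upper-layer genes rose and 2 fell (median 0.90), against 5 and 1 of 17 deep-layer genes (median 0.49, and -0.04 without E13 replicate 0). After rescaling 8 deep-layer genes rose and none fell. Ldb2, a cofactor of LIM-domain transcription factors, stood at 3.36 and 2.06 FPKM at E13 and 31.7, 45.2 and 31 FPKM at P0, and its P0 libraries were all far above E13. Etv1, of layer V, rose by 2.13, and Crym, a thyroid hormone-binding protein, by 2.87. The upper-layer genes that fell, Lhx2 (-2.54) and Cux1 (-0.96), are also used by progenitors. Fezf2, the deep-layer selector, was the 1 deep-layer gene called lower (-0.57, adjusted p = 0.0366). That call ends after rescaling and without E13 replicate 0, P0 replicate 0 or P0 replicate 2.

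Interneuron genes rose in 14 of 23 and fell in 2 (median 1.26; 1 fell without any 1 of the P0 libraries). Lhx6, the factor of interneurons from the medial ganglionic eminence, stood at 1.44 and 4.64 FPKM at E13 and 42.4, 40.3 and 34.1 FPKM at P0. The GABA-synthesising enzymes Gad1 and Gad2 rose by 2.33 and 1.93, and the neuropeptide Npy by 3.62. Sp8, of interneurons from the caudal eminence, fell by 1.39. Of Cajal-Retzius genes 1 rose and 4 fell of 8 (2 without E13 replicate 0); Reln, the secreted signal of these cells, was at 1.63 and 2.56 FPKM at E13 and 4.02, 3.93 and 6.19 FPKM at P0 (adjusted p = 0.0557).

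Glial genes rose from low levels. Of astrocyte genes 10 rose and 2 fell of 13 (median 1.50). Gfap, the astrocyte filament protein, stood at 0.0502 and 0.0258 FPKM at E13 and 5.39, 8.49 and 10.6 FPKM at P0, and Aldh1l1, a folate enzyme of astrocytes, at 0.351 and 0.0860 FPKM at E13 and 3.94, 3.41 and 6.17 FPKM at P0. The exceptions were Fgfr3 and Aldoc (-1.16), both made by radial glia too. Of the oligodendrocyte lineage 6 rose and none fell of 8. Olig1 stood at 0.894 and 0.0938 FPKM at E13 and 17.3, 7.75 and 11.6 FPKM at P0, Olig2 rose by 2.15 and Pdgfra, the receptor of precursors, by 1.61.

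Glutamate receptor genes rose in 21 of 24 and fell in none (median 2.13). The obligatory NMDA receptor subunit Grin1 stood at 0.401 and 0.257 FPKM at E13 and 8.26, 7.02 and 12.4 FPKM at P0, a difference of 2.91 ± 0.30 (adjusted p = 1.84e-06). The kainate receptor auxiliary subunit Neto1 stood at 0.247 and 0.317 FPKM at E13 and 18.2, 12.9 and 16.1 FPKM at P0, and its relative Neto2 at 14.7 and 21.9 FPKM at E13 and 139.6, 144 and 126 FPKM at P0. In all of these the P0 libraries lay above both E13 libraries, Neto2 from a higher level at E13 than the other 2. The AMPA receptor subunit Gria4 rose by 2.38 and the AMPA receptor partners Cacng2 and Cacng3 by 2.89 and 3.18. Not called were Cacng4, at 135 and 130.5 FPKM at E13 and 209, 165 and 175 FPKM at P0, and the kainate subunits Grik5 and Grik2. Between 19 and 21 of the list were called with 1 library left out.

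Most channel genes rose as well. Of voltage-gated channel genes 29 of 38 rose and none fell (median 1.49). Hcn2, a pacemaker channel, stood at 0.783 and 0.870 FPKM at E13 and 19.2, 16 and 18.6 FPKM at P0, a difference of 3.37 ± 0.18 (adjusted p = 4.64e-09). The sodium channel beta subunit Scn3b rose by 2.66, the potassium channel Kcna2 by 1.69 and the calcium channel subunit Cacnb4 by 2.03. Of chloride, pump and solute carriers 13 of 22 rose and 3 fell (median 1.39). Atp1b1, a subunit of the sodium pump, rose by 3.92. Slc12a5, the chloride extruder KCC2 that makes GABA inhibitory, was called too, at 0.339 and 0.171 FPKM at E13 and 3.14, 2.12 and 3.56 FPKM at P0 (adjusted p = 6.24e-05; named for its role after its values were seen). The chloride importer Slc12a2 was at 3.05 and 6.49 FPKM at E13 and 8.83, 7.78 and 7.23 FPKM at P0 (adjusted p = 0.0798). Slc2a1, the glucose transporter of the blood-brain barrier, fell by 1.73. Of the 3 that fell, 1 was called when E13 replicate 0, P0 replicate 1 or P0 replicate 2 was left out.

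Of vesicle release genes 30 of 38 rose and 1 fell (median 1.72). Erc2 stood at 2.90 and 7.08 FPKM at E13 and 109, 123 and 110.5 FPKM at P0. Snap25, of the fusion complex, stood at 3.97 and 3.60 FPKM at E13 and 47.4, 48.8 and 47.4 FPKM at P0, and Syt1, the calcium sensor of release, at 1.74 and 2.38 FPKM at E13 and 34.4, 28.5 and 41.1 FPKM at P0. Synapsin Syn1 rose by 2.02 and Syt4 by 3.77. The priming factor Unc13b was called lower (-0.45, adjusted p = 0.0261), a call lost on rescaling and without E13 replicate 0, E13 replicate 1 or P0 replicate 1. Slc17a7 (0.71) and Slc17a6 (-0.53), the vesicular glutamate transporters, did not pass the test. Of scaffold and adhesion genes 26 of 37 rose and 3 fell (median 1.24). The postsynaptic scaffold Dlg2 stood at 0.834 and 1.35 FPKM at E13 and 33.4, 34.0 and 32.9 FPKM at P0, and Dlgap1, which binds it, at 0.541 and 0.843 FPKM at E13 and 20.1, 24.8 and 18.3 FPKM at P0. The presynaptic adhesion protein Nrxn3 rose by 2.15, Camk2b, a kinase of synapses, by 3.99 and Begain, a scaffold partner, by 2.78. Dlg1 went the other way, from 20.2 and 17.4 FPKM to 8.78, 8.89 and 9.02 FPKM (adjusted p = 6.48e-04). Dlg3 and Cntnap2 also fell (-0.80 and -1.55), calls that end without E13 replicate 0.

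Genes of the growing neurite rose in part. Of cytoskeletal genes 25 of 43 rose and 4 fell (median 1.14). Mapt, tau, stood at 10.9 and 9.74 FPKM at E13 and 151, 162 and 135 FPKM at P0, and Stmn2, a tubulin-binding growth cone protein, at 74.3 and 94.0 FPKM at E13 and 476, 574 and 547 FPKM at P0. Neurofilaments Nefl and Nefm rose by 2.89 and 2.44, the microtubule-binding proteins Dclk1 and Mtap4 by 2.15 and 2.16. The tubulins Tuba1b and Tuba1c changed by -1.70 and -1.24 (Tuba1c not without E13 replicate 1), the dynein light chain Dynll1 fell by 1.55 and Marcksl1, a membrane-bound actin regulator, fell by 1.76. Tuba1b and Tuba1c are near-identical copies, so their split of reads is uncertain.

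Of axon guidance genes 24 of 47 rose and 7 fell (median 0.86); without E13 replicate 0 the counts were 12 and 5, and without E13 replicate 1 26 and 2. The adhesion molecules Chl1 and Cntn1 rose by 4.06 and 3.55, the semaphorin Sema3c by 1.96, the ephrin Efna5 by 1.49 and the netrin receptor Unc5a by 1.72. The ephrin Efnb1 stood at 25.3 and 30.3 FPKM at E13 and 4.28, 3.13 and 5.13 FPKM at P0. Of cadherins 12 of 23 rose and 2 fell: Pcdh9 rose by 2.39 and Pcdh7 by 1.96, and Celsr1, of planar polarity in progenitors, fell by 2.15.

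Chromatin genes fell more often than not, 24 of 40 lower and 3 higher (median -0.83; 1 higher without E13 replicate 0). Uhrf1, which copies DNA methylation at replication, stood at 31.7 and 24.7 FPKM at E13 and 0.928, 1.18 and 1.72 FPKM at P0. The linker histone H1f0 stood at 643 and 342 FPKM at E13 and 48.6, 43.9 and 47.1 FPKM at P0, and the variant H2afz and the high-mobility protein Hmgb2 changed by -3.62 and -3.77. Chd5, a neuronal remodeler, stood at 0.206 and 0.381 FPKM at E13 and 5.81, 5.06 and 5.78 FPKM at P0, above E13 in every P0 library. The BAF remodeler is known to swap progenitor subunits for neuronal ones: Actl6a stood at 90.4 and 25.1 FPKM at E13 and 5.23, 6.03 and 5.87 FPKM at P0 and its neuronal counterpart Actl6b at 21.2 and 32.0 FPKM at E13 and 76.8, 65.4 and 71.6 FPKM at P0. Smarca2, an ATPase of the complex, rose by 2.24, Dpf1 by 1.22 and Ss18l1 by 0.86 (not without E13 replicate 0, P0 replicate 0 or P0 replicate 1), and Ss18 and Dpf2 changed by -1.69 and -1.46. In all 5 of 21 BAF genes rose and 10 fell, with 3 rising without E13 replicate 0, P0 replicate 0 or P0 replicate 1. Such opposite moves of related genes are drawn for 4 pairs, chosen after their values were seen.

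**Figure D3:**
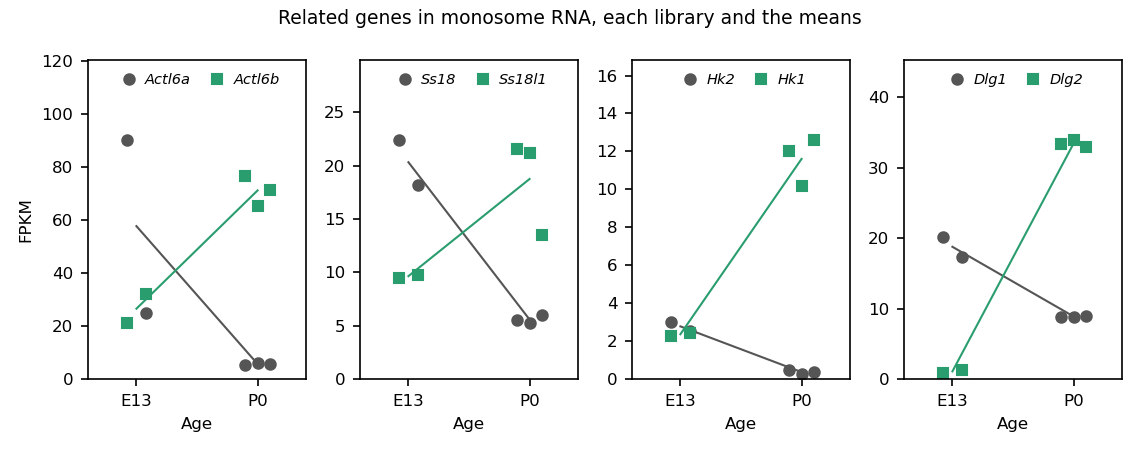
Monosome FPKM of 4 pairs of related genes in each E13 (left) and P0 (right) library; lines join the means of the 2 and 3 libraries and each axis starts at 0. Actl6a, Ss18, Hk2 and Dlg1 lie lower at P0 and Actl6b, Ss18l1, Hk1 and Dlg2 higher, with 1 of the 3 P0 libraries of Ss18l1 nearer to E13 than the other 2.

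RNA-binding and splicing genes went both ways, 13 higher (26.5%) and 18 lower (36.7%) of 49. Over all genes the shares were 20.4% and 35.7%, so the lower share was near that of all genes. After rescaling 15 were higher and 15 lower. The median was -0.20, and -0.18 without E13 replicate 0. The 3 Igf2bp genes, whose proteins bind and stabilise mRNAs, fell: Igf2bp2 stood at 97.0 and 38.2 FPKM at E13 and 5.20, 6.13 and 4.90 FPKM at P0, and Igf2bp1 and Igf2bp3 changed by -2.62 and -1.72. Celf genes, regulators of splicing and decay in neurons, rose: Celf4 stood at 3.64 and 11.1 FPKM at E13 and 61.5, 75.2 and 64.1 FPKM at P0, and Celf5, Celf6 and Celf2 rose by 2.21, 1.84 and 1.41. The cytoplasmic polyadenylation factors Cpeb2, Cpeb3 and Cpeb4 rose by 1.69, 1.62 and 1.91, and the splicing factor Rbfox1 by 3.32.

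The messages of the translation machinery are a large part of this pool: large-subunit ribosomal protein genes made up 18.6% and 25% of all FPKM at E13 and 20.6%, 22.8% and 22.0% at P0. Of these genes 16 of 48 fell and none rose (median -0.51), and of the small-subunit genes 8 of 32 fell and none rose (median -0.62). Those counts were 3 and 2 after rescaling, 4 and 2 without E13 replicate 1, and 7 to 9 and 3 to 5 without 1 of the P0 libraries. In total RNA 22 and 21 of the same genes fell, against 27.9% of all genes. In polysome RNA 46 and 31 of them fell, against 33.4% of all genes. The monosome and polysome differences were themselves called apart in 1 of the 48 and none of the 32. Rps27l, a ribosomal protein gene induced by p53, showed the clearest fall, at 1035 and 857 FPKM at E13 and 211, 205 and 215 FPKM at P0 (adjusted p = 6.09e-05). Rpl22l1, a paralog with a role in development, stood at 1305 and 1921 FPKM at E13 and 588, 745 and 765 FPKM at P0. Many ribosomal protein genes have near-identical pseudogenes, so their read assignment is uncertain.

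Initiation factor genes were called higher in 7 (15.6%) and lower in 16 (35.6%) of 45, the lower share near the 35.7% over all genes. After rescaling 10 were higher and 9 lower. The median was -0.25, and -0.27 without E13 replicate 0, where fewer of these genes were called in either direction. Without 1 P0 library 2 to 4 were higher. Eif4a2, an eIF4A helicase, stood at 59.9 and 131 FPKM at E13 and 443, 462 and 461 FPKM at P0. Eif4ebp1, which holds back the cap-binding protein, stood at 53.9 and 21.9 FPKM at E13 and 5.82, 3.25 and 3.57 FPKM at P0, and Eif4ebp2 fell by 1.25. Eif5a stood at 1671 and 505 FPKM at E13 and 208, 163 and 169.5 FPKM at P0, and its E13 libraries differed widely, both above P0. Among elongation genes 3 were called higher and 9 lower of 21, the 9 with Eef1a1, described next. Eef1a2, the elongation factor form of mature neurons, stood at 2.52 and 12.3 FPKM at E13 and 104, 74.8 and 102 FPKM at P0. Its counterpart Eef1a1 is listed at 0 in all 3 P0 monosome libraries, against 2251 to 22285 FPKM in the other wild-type libraries; such a 0 can be a failed estimate, and no fold is given for it. Eef2k, the kinase that slows elongation, rose by 1.01, and Paip2, which displaces poly(A)-binding protein, fell by 1.72.

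In the mTOR pathway, which sets translation capacity, 5 of 25 genes rose (20.0%) and 8 fell (32.0%), near the shares over all genes (20.4% and 35.7%). The median was -0.25, and -0.34 without E13 replicate 0, where fewer of these genes were called lower. Akt2, an AKT kinase, fell by 1.08. The PI3-kinase regulatory subunit Pik3r1 rose by 2.61, and Ddit4, an mTOR inhibitor, fell by 1.04. In a list drawn up for mRNAs with regulatory upstream reading frames, 1 of 17 genes rose and 9 fell. The median was -0.59, and -0.48 without E13 replicate 0. Atf5, a stress-response factor, was at -1.63 and Odc1, of polyamine synthesis, at -1.34. Oaz1, the antizyme of Odc1 and also placed in the list, was at -1.83. Whether each member has such a frame was not checked. Azin1, the antizyme inhibitor, rose by 0.94.

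Some transcripts of this pool code for no protein. Of 87 tested lincRNA genes, 26 were higher and 24 lower (median 0.18), against 2367 and 4201 of 11652 protein-coding genes (median -0.28). In the list of known long non-coding RNAs 6 rose and 4 fell of 16, 2 without E13 replicate 1. Meg3 and Rian, from the imprinted Dlk1-Dio3 cluster, stood at 3.37 and 4.18 FPKM at E13 and 19.7, 30.8 and 23.6 FPKM at P0 and at 34.3 and 113 FPKM at E13 and 392, 723 and 565 FPKM at P0. Rmst, of neural progenitors, stood at 7.22 and 3.63 FPKM at E13 and 0.107, 0.247 and 0.481 FPKM at P0. H19, imprinted and growth-linked, fell by 1.76, but not without E13 replicate 1 (adjusted p = 0.129). Malat1, a nuclear RNA, was at 38.8 and 27.2 FPKM at E13 and 26.5, 32.2 and 9.90 FPKM at P0 (adjusted p = 0.372). Of small nucleolar RNA host genes 3 rose and 2 fell of 13 (none fell after rescaling and 1 without E13 replicate 0, E13 replicate 1, P0 replicate 1 or P0 replicate 2), and Gas5, a host whose mature RNA binds ribosomes, was at 36.0 and 48.1 FPKM at E13 and 24.7, 41.1 and 27.9 FPKM at P0 (adjusted p = 0.319).

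Genes for the mitochondrial respiratory chain fell in 41 of 66 and rose in none (median -0.85). Ndufb7, of complex I, stood at 508 and 237 FPKM at E13 and 109.8, 55.8 and 96.0 FPKM at P0, a difference of -2.04 ± 0.36 (adjusted p = 2.24e-04). Ndufs7, also of complex I, stood at 127 and 72.3 FPKM at E13 and 26.8, 17.5 and 26.2 FPKM at P0, and Cycs, cytochrome c, at 89.2 and 41.1 FPKM at E13 and 22.4, 17.6 and 20.5 FPKM at P0. In each E13 replicate 0 was the higher of the E13 libraries, and both lay above every P0 library. Uqcr11, of complex III, fell by 1.99 and the ATP synthase subunits Atp5g3 and Atp5d changed by -1.32 and -1.10. In total RNA 2 and in polysome RNA 4 of the 66 were called lower, while the monosome difference itself was called apart from the total one in none and from the polysome one in 2. After rescaling 24 fell and 1 rose. Without E13 replicate 0 the median of the list was -0.51, against -0.21 over all genes. Without E13 replicate 1 it was -1.27, against -0.29. Both the size of the fall and how many of the 66 fell depended on which E13 library was kept. With P0 replicate 1 left out 25 fell. The part of single libraries in the pattern was not tested.

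Glycolysis genes fell in 11 of 17 (6 without E13 replicate 0) and rose in 4 (median -1.16), and isoforms moved apart. Hk1, the hexokinase of neurons, stood at 2.28 and 2.45 FPKM at E13 and 12.0, 10.2 and 12.6 FPKM at P0, and Hk2, a form of dividing cells, at 3.02 and 2.53 FPKM at E13 and 0.478, 0.252 and 0.377 FPKM at P0. Eno2, neuronal enolase, rose by 1.65, and the phosphofructokinases Pfkm and Pfkp by 1.38 and 1.32. Tpi1 and Pkm2, the glycolytic enzymes triosephosphate isomerase and pyruvate kinase, changed by -1.94 and -1.50. Cholesterol synthesis genes split evenly, 4 higher and 4 lower of 23 (2 higher without P0 replicate 2, 2 lower without E13 replicate 0), with Hmgcs1 and Sqle up by 0.78 and 0.95. Of folding and proteasome genes 11 of 37 fell (29.7%, below the 35.7% over all genes) and none rose. After rescaling 6 were lower and 3 higher. The median was -0.26, and -0.19 without E13 replicate 0, where fewer of these genes were called lower.

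The age difference in monosome RNA went with coding length. Among the 2338 genes with the shortest coding sequences (93 to 741 nucleotides) the median difference was -0.66, with 14.5% higher and 49.8% lower. It was -0.42, -0.28 and -0.12 in the next length groups and 0.03 among the longest (2508 to 23151 nucleotides), where 26.6% were higher and 23.4% lower. The same medians lay between -0.28 and 0.12 in total RNA and between -0.32 and -0.00 in polysome RNA, where the second group was the lowest. In monosome RNA of the libraries labelled cKO they lay between -0.18 and 0.18. Spearman's rho between coding length and the difference, across 11654 genes that share the same libraries, was 0.231 in monosome, 0.129 in total and 0.079 in polysome RNA, given as a description; in cKO monosome RNA it was 0.119 across 11551 genes. Without the ribosomal and respiratory chain genes the monosome rho was 0.224 over 11509 genes. Leaving out E13 replicate 0 narrowed the range of medians to -0.45 to -0.08, no wider than that of total RNA, and rho to 0.141, and leaving out E13 replicate 1 widened it to -0.84 to 0.15 and 0.282. Rescaling moved it to -0.42 to 0.25.

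**Figure D4:**
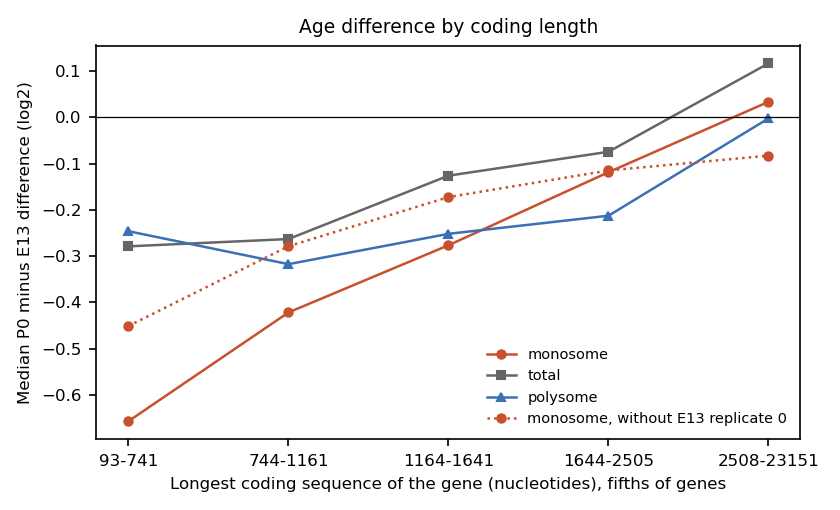
Median P0 minus E13 difference (log2) of genes in 5 equal groups by coding length, for monosome, total and polysome RNA, and for monosome RNA without E13 replicate 0 (dotted). The monosome line climbs from -0.66 to 0.03 with all libraries and from -0.45 to -0.08 without E13 replicate 0; total RNA lies between -0.28 and 0.12 and polysome RNA between -0.32 and -0.00.

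Whether a gene's age difference in monosome RNA departed from that in polysome RNA was tested directly. Alone, the age difference was called for 57.1% of genes in polysome and 52.3% in total RNA. The test called 513 of 12123 genes (4.23%), 147 with a higher difference in monosome RNA (1.21%) and 366 with a lower one (3.02%). After rescaling it called 393, 155 with a higher and 238 with a lower difference. A gene not called is not shown to have the same difference in both. For the 366 the median difference was -0.66 in monosome, 0.38 in total and 0.80 in polysome RNA. For the 147 it was 0.21, -0.54 and -1.29. Their median coding lengths were 778.5 nucleotides for the 366 and 1599 nucleotides for the 147, against 1389 for all genes tested here with a coding length. The count moved with the libraries, from 112 without E13 polysome replicate 0 to 1927 without E13 monosome replicate 1, and without E13 polysome replicate 1 it was 533 higher and 591 lower.

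The 10 largest lower differences in monosome RNA, under the same limits, include several genes of growth cones and synapses. The lists of such genes were mostly not called: 2 of 43 cytoskeletal and 2 of 37 scaffold and adhesion genes were lower. None of 24 glutamate receptor and none of 47 axon guidance genes were, against 3.02% of all genes. Basp1, a membrane protein of growing axons, was at 293 and 245 FPKM at E13 and 221, 217 and 176 FPKM at P0 in monosome RNA and at 119 and 251 FPKM at E13 and 733, 888 and 955 FPKM at P0 in polysome RNA. It rose in polysome RNA (2.30) and total RNA (2.00) and did not pass the test in monosome RNA (-0.39); the 2 age effects differed by -2.69 ± 0.39 (adjusted p = 0.00343). Marcksl1 fell in monosome RNA and was at 558 and 784 FPKM at E13 and 877, 989 and 1423 FPKM at P0 in polysome RNA (difference of age effects -2.46, adjusted p = 0.00672). Nrgn, which binds calmodulin in dendrites, rose by 2.85 in monosome and 5.50 in polysome RNA. Prrt2, a presynaptic fusion regulator, rose by 1.24 against 3.71, Vsnl1, a calcium sensor, by 2.91 against 5.18, and the kinase Ptk2b by 2.33 against 4.82. The adaptor Grb2 went from 83.4 and 42.7 to 30.9, 28.8 and 30.4 FPKM in monosome RNA and rose in polysome RNA (1.25); its monosome call ends without E13 monosome replicate 0. The age effects of Mlf2, Prr5 and Rmnd5b differed likewise, by -2.28, -2.21 and -2.20. Left-out libraries ended some of these calls: E13 monosome replicate 0 that of Nrgn and Prr5, P0 monosome replicates 1 and 2 that of Nrgn, and E13 polysome replicate 0 that of Nrgn and Mlf2.

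Among vesicle release genes, 8 of 38 were called lower in the monosome difference and 2 higher, against 3.02% and 1.21% of all genes. Vamp2, of the fusion complex, rose by 1.30 in monosome and 3.32 in polysome RNA, Cplx2, which clamps it, by 0.82 (not without E13 monosome replicate 1) and 2.70, and Stx1a by 1.82 and 3.24. Rab3a, the vesicle GTPase, was at 40.5 and 49.8 FPKM at E13 and 70.1, 59.6 and 71.2 FPKM at P0 in monosome RNA (adjusted p = 0.142, called higher after rescaling) and rose by 2.65 in polysome RNA. The adaptor Napb gave 1.75 against 3.08. Unc13b and Sypl were the 2 with a higher monosome difference. Of replication and mitosis genes 6 of 40 had a higher monosome difference and none a lower one, with a smaller fall in monosome than in polysome RNA for Plk1 (-3.04 against -4.50), Cdc6 (-1.55 against -3.0) and Mcm7 (-1.14 against -2.42), among others.

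The 10 largest differences the other way, with no library at 0 and no predicted or small RNA genes, were of several kinds. Stx3, a syntaxin of plasma membrane fusion, was at 2.87 and 1.95 FPKM at E13 and 11.7, 29.3 and 22.4 FPKM at P0 in monosome RNA and at 6.73 and 3.44 FPKM at E13 and 3.38, 6.51 and 6.94 FPKM at P0 in polysome RNA, with every P0 library above E13 in monosome RNA and overlapping ages in polysome RNA (difference of age effects 2.49 ± 0.51, adjusted p = 0.0198). Adss, of AMP synthesis, rose by 1.95 in monosome and gave -0.28 in polysome RNA, and Aqp11, an aquaporin, gave 1.99 and -0.27. Msi1, the RNA-binding protein Musashi of progenitors, fell by 0.81 in monosome RNA, from 168 and 173 to 96.2, 103 and 92.4 FPKM, and fell by 2.88 in polysome RNA, from 125 and 121 to 14.1, 13.4 and 21.1 FPKM. Skp2, which marks cell cycle inhibitors for decay, changed by -2.04 and -4.20. Tcerg1l, Bgn, Zc3h7b, Alas2 and Zik1 complete the 10, with differences of 2.36, 2.70, 2.09, 2.24 and 2.04. The pacemaker channel Hcn2 was called here too, at 1.80, as was Meg3, at 1.47. The calls of Stx3 and Zik1 end without E13 monosome replicate 0, those of Stx3, Zik1 and Skp2 without E13 polysome replicate 0, and that of Stx3 without P0 monosome replicate 2.

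**Figure D5:**
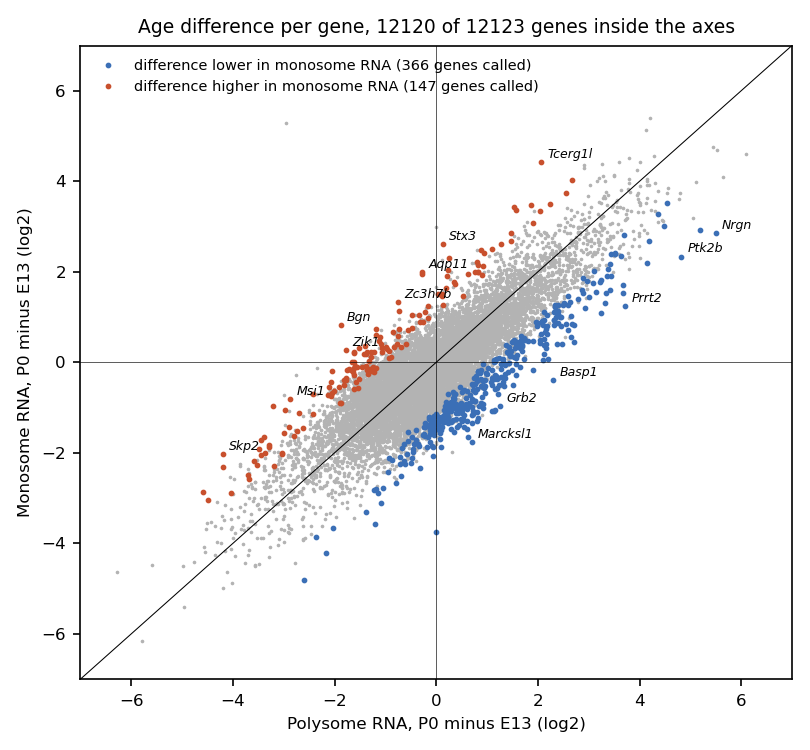
Each gene's P0 minus E13 difference (log2) in polysome RNA (x) and monosome RNA (y) for 12120 of 12123 genes; colours mark the 147 genes with a higher and the 366 with a lower difference in monosome RNA, and some of the named genes are labelled. Most genes lie along the diagonal, and the lower coloured band holds Basp1, Marcksl1, Nrgn and Prrt2.

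Against total RNA the same limma test of the difference between age effects called 9 of 12123 genes (0.0742%), 2 higher (0.0165%) and 7 lower (0.0577%), and 1586 at an unadjusted p under 0.05. Besides Basp1 (-2.39, adjusted p = 0.0338), Prrt2 (-2.10) and Vsnl1 (-1.96), the called genes included Spryd3, which rose by 0.63 in monosome and 2.19 in total RNA. With libraries left out the count ran from 3 (without E13 monosome replicate 0, and without some total libraries) to 1024 (without E13 monosome replicate 1). The calls of Basp1, Prrt2, Vsnl1 and Spryd3 all end without E13 monosome replicate 0.

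The libraries labelled cKO give the same age comparison for a second set of libraries, 3 at E13 and 2 at P0. Elavl1 does not check those labels: it was at 83.9, 80.0 and 82.0 FPKM at E13 and at 29.9 and 24.5 FPKM at P0, above the wild-type libraries, so directions drawn from them rest on the labels alone. Their table was normalised apart from the wild-type one. In it 5986 of 12302 genes were called (48.7%), 3231 higher (26.3%) and 2755 lower (22.4%), with a median of 0.03. The test of wild-type against cKO age effects called 35 of 12233 genes (0.286%), 3 higher in wild type (0.0245%) and 32 lower (0.262%). After rescaling there were 7, 3 higher and 4 lower, and with 1 library left out 0 to 219, none without wild-type E13 replicate 1 and none without 1 of the cKO P0 libraries. Each gene named next therefore loses its call without either of those libraries.

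Among those 35, Sstr2, a somatostatin receptor, fell in wild type (at 56.0 and 95.9 FPKM at E13 and 11.3, 13.1 and 17.8 FPKM at P0, -2.32) and had a cKO difference of 1.10. Neurod6, a factor of cortical projection neurons, was at 75.9 and 230.0 FPKM at E13 and 209, 278 and 180.1 FPKM at P0 in wild type (0.72, adjusted p = 0.212) and had a cKO difference of 4.11. Aldoc gave -1.16 and 1.89, and Ntng2, a netrin-G of axons, 1.27 and 3.85. Ndrg2, Rlbp1 and Slc15a2 gave -0.24, -0.37 and 0.86 in wild type and 2.30, 1.93 and 3.39 in cKO. Hbb-b1, adult beta globin, gave -3.62 and 0.01, and Beta-s, also a beta globin, -1.05 and 3.98. Rhbdl3 gave -4.49 and -2.34. Slc25a37, the mitochondrial iron importer of red cells, fell by 2.05 in wild type and fell by 4.04 in cKO, and Fam84b gave 0.39 and -1.49.

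Markers of other cells in the dissected tissue moved as well. Erythroid genes fell in 9 of 9 tested of the list (median -3.68), and their summed level was 6192 and 7023 FPKM at E13 and 191, 44.9 and 158 FPKM at P0. Beta-s, a beta globin outside that list and sum, was at 116 and 402 FPKM at E13 and 130, 51.7 and 167 FPKM at P0. Its ages overlapped, and it did not pass the test in limma (-1.05, adjusted p = 0.262). Of the embryonic globins, Hbb-y stood at 3824 and 3824 FPKM at E13 and 0.151, 0 and 1.42 FPKM at P0 and Hba-x stood at 908 and 464 FPKM at E13 and 0, 0 and 0.135 FPKM at P0. Microglial genes rose in 5 of 11 and fell in none (3 rose without E13 replicate 0, P0 replicate 0 or P0 replicate 2), with sums of 50.8 and 36.1 FPKM at E13 and 84.5, 55.6 and 81.4 FPKM at P0. Ctss, a microglial protease, rose by 1.25. Endothelial and mural genes gave 2 higher and 2 lower of 10 (1 and none without E13 replicate 0, 1 lower without P0 replicate 0 or P0 replicate 1, 1 higher without P0 replicate 2), with sums of 25.6 to 41.2 FPKM. Meningeal and choroid plexus genes gave 3 higher and 2 lower of 13 (1 lower without E13 replicate 0 or P0 replicate 1, none without E13 replicate 1); their sums, 104 and 246 FPKM at E13 and 305, 155 and 1029 FPKM at P0, overlapped between the ages, and P0 replicate 2 was the highest. None of these markers was at 0 in all 5 libraries, and their part in the results above was not tested.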

How the data were processed

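Per the labels, neocortex was lysed with cycloheximide, lysate was run on sucrose gradients, equal volumes of RNA from 14 fractions were pooled by region, and poly(A) libraries were read as pairs of 100 bases (TruSeq kit, not strand-specific). The authors deposited FPKM values per gene, one table per genotype. Reads were mapped to GRCm38 (mm10) and FPKM estimated with tools that include Cuffdiff, Bowtie2 2.0.5.0 and TopHat2 2.0.6, per the submitters' processing notes, which state no roles, annotation or scaling. Each table lists 23284 names, of which 26 read as dates or bare numbers were left out. Reads from overlapping or antisense genes cannot be told apart.

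Values were tested as log2(FPKM + 1) with limma 3.58.1 (R 4.3.3; moderated, intensity trend, two-sided, Benjamini-Hochberg over all genes) for genes with a mean of at least 1 FPKM. The wild-type fit held 15 libraries in 6 groups (9 residual degrees of freedom), the cKO fit 16 libraries (10), and a joint fit 31 libraries in 12 groups (19) served for the difference between genotypes. Genes were called at an adjusted p under 0.05, and 5 such comparisons were made. The fits were tested on simulated data. Rescaling divided libraries by their median ratio. Each library was left out in turn.

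Deviations from group means were correlated across 8496 genes between monosome and polysome libraries. Equally numbered libraries gave 0.364 at E13 and 0.153, 0.363 and 0.148 at P0. Unequal numbers gave -0.364 at E13, where 2 libraries mirror each other, and -0.204 to 0.011 at P0. Libraries of different ages, which cannot be pairs, reached -0.324 and 0.324, so these values do not settle a pairing. The labels do not state the pairing.

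The 41 lists hold 1126 names, of which 1101 matched by symbol, 19 by synonym and 6 not, and 1039 of the matched genes were tested. The comparison and lists were chosen with earlier results of these data known. Named are Elavl1, the 15 largest changes each way (a group mean of at least 5 FPKM, ages that do not overlap, no library at 0, no predicted or small RNA genes), per list up to 6 called members by adjusted p, those against its direction and some not called, up to 10 each way of the interaction tests under the same limits save overlap, and genes listed at 0, save some genes not reported here. Coding lengths and Elavl1's position are from GENCODE vM21, and promoters from RefSeq. Python 3.11.15, pandas 2.3.3, numpy 2.4.6, scipy 1.17.1 and matplotlib 3.10.9 were used.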

Additional observations from a re-analysis of the deposited data

Results flagged for a closer look

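The monosome and polysome age effects differed by a direct test in 513 genes. Among the genes named, the monosome effect was the lower for Basp1 (-2.69), Nrgn (-2.65), Ptk2b (-2.49), Prrt2 (-2.47), Marcksl1 (-2.46), Mlf2 (-2.28), Vsnl1 (-2.27), Grb2 (-2.22), Prr5 (-2.21) and Rmnd5b (-2.20), and the higher for Bgn (2.70), Stx3 (2.49), Tcerg1l (2.36), Aqp11 (2.26), Adss (2.24), Alas2 (2.24), Skp2 (2.16), Zc3h7b (2.09), Msi1 (2.07) and Zik1 (2.04); each value is the difference between the 2 age effects in log2 units.

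The monosome and total RNA age effects differed in 9 genes, among them Basp1 (-2.39), Prrt2 (-2.10), Vsnl1 (-1.96) and Spryd3 (-1.56), all lower in monosome RNA.

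The wild-type monosome age effect differed from that of the libraries labelled cKO in 35 genes. It was the lower in wild type for Beta-s (-5.02), Hbb-b1 (-3.63), Sstr2 (-3.42), Neurod6 (-3.39), Aldoc (-3.05), Ntng2 (-2.58), Ndrg2 (-2.55), Slc15a2 (-2.54), Rlbp1 (-2.30) and Rhbdl3 (-2.15), and the higher for Slc25a37 (1.98) and Fam84b (1.89). Elavl1 does not check the cKO labels, and the 2 tables were scaled apart.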

How the results depend on the processing

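The number of genes called between the ages stayed within 1.5 times of 6807 under every alternative, from 4932 at a mean of at least 5 FPKM to 7703 with no filter, and from 5005 to 6782 with 1 library left out. In the libraries labelled cKO it ran from 4235 to 5633 with 1 library left out. A replicate block across ages gave 5310 calls; the numbers share only a label there, with correlations of -0.011 and 0.001. For monosome against polysome RNA the block gave 582 calls, a pseudocount of 0.1 gave 306, rescaling 393, and left-out libraries gave 112 to 1927. For monosome against total RNA the block gave 9 calls, leaving out genes at 0 gave 1, rescaling 4, left-out libraries 3 to 1024, and crossing the E13 total numbers 292 (39 higher, 253 lower), a pairing added after the data were seen because equal numbers correlated at -0.529 at E13, against 0.414, 0.472 and 0.352 at P0. For wild type against cKO a pseudocount of 0.1 gave 21 calls, no filter 78, rescaling 7 and left-out libraries 0 to 219. The cause was not tested. Leaving out total and polysome libraries was also added after the data were seen.

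Of 260 genes named, 248 kept direction and call on rescaling, 235 without E13 replicate 0 and 249 without E13 replicate 1. Signs turned only for genes not called: on rescaling for Ndrg2 (0.018), Sypl (0.12) and Tbr1 (0.25), under the block across ages for Grik2 (-0.049) and Tbr1 (0.056). With 1 library left out the range crossed 0 for Elavl4 (-0.14 to 0.28), Fam84b (-0.094 to 0.88), Grik2 (-0.082 to 0.31), Neurod6 (-0.073 to 1.51), Slc17a6 (-1.25 to 0.18), Tbr1 (-0.26 to 0.25) and Zik1 (-0.073 to 0.60). On rescaling Cacng4, Slc12a2, Slc17a7, Rab3a, Reln, Ptch1 and Fam84b were called higher. Fragment counts are not known, so low FPKM values have no counting error here.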

Other observations

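The ribosomal protein lists had monosome age medians of opposite sign in the 2 tables: -0.51 in wild type and 0.48 in the libraries labelled cKO for the large subunit, and -0.62 in wild type and 0.45 in the libraries labelled cKO for the small subunit. Of the large subunit genes 7 were called higher and 1 lower in the cKO table, against 26.3% and 22.4% of all its genes. The difference between the genotypes' age effects was called for none of the 48 large and none of the 32 small subunit genes, and the tables were scaled apart. Upper-layer genes had medians of 0.90 in wild type and 2.24 in the libraries labelled cKO, and respiratory chain genes -0.85 in wild type and -0.30 in the libraries labelled cKO; the difference was called for none of the 18 and none of the 66, with medians of -0.48 and -0.60 against -0.32 over all genes. Genes not called are not shown to act alike in the 2 genotypes.

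Besides Eef1a1, the genes listed at 0 in all monosome libraries of an age, with a mean of at least 50 FPKM in the other wild-type libraries, were Mir686 and the embryonic globin Hbb-bh1 at P0 and the small nucleolar RNA Snora64 at E13. Their values in the other libraries ran from 0 to 988, from 0 to 195 and from 0 to 642 FPKM.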
